A study of Mus musculus with 4 samples.

Results

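The direct comparison described here sets bone marrow stem and progenitor cells carrying constitutively active Ikk2 (Ikk2CA) against the same kind of cells carrying mutant Jak2 (Jak2V617F), as single-cell RNA-seq libraries. Barcodes with 500 to 7500 detected genes and under 10% mitochondrial counts were kept, which left 9865 of 10330 barcodes in the Ikk2CA library and 14156 of 15620 in the Jak2V617F library. These 24021 cells are part of 37344 kept cells of 41674 barcodes in the 4 libraries of the study. Counts of unique molecules (UMIs) were summed per gene over the kept cells of a library and scaled to CPM (counts per 1000000 UMIs of the library), and 8358 genes with 10 CPM or more in either library were compared.

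Both groups are mice of 8 to 12 weeks, and each library holds cells pooled from 5 mice. The Ikk2CA mice carry 1 copy of the R26StopFLikk2ca allele (Ikk2 with S177E and S181E) and the Jak2V617F mice carry 1 floxed copy of Jak2 V617F, both with 1 copy of Vav1-iCre, which drives recombination in blood cells. The control mice carry Vav1-iCre too and no mutant allele, and the double mutants carry all 3. The series' design text also names an NF-κB-responsive EGFP reporter, which the sample labels do not list. Cells were enriched for Kit on beads and sorted as LSK, that is without lineage markers and positive for Sca-1 and Kit. With 1 pooled library per genotype there is no replicate check, so sizes are described without a test, and genotype cannot be told apart from library, pool or run. All intervals below are 95% intervals and cover counting error only.

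Ikk2, encoded by Ikbkb, is the kinase that marks the inhibitors of NF-κB for destruction, which frees the NF-κB dimers to enter the nucleus. NF-κB then switches on chemokines, receptors and its own inhibitors, Nfkbia and Tnfaip3 among them, which limit the response. Jak2 is the kinase bound to several blood cytokine receptors, it phosphorylates STAT5, and Cish, Pim and Socs genes are standard STAT5 targets. The V617F form signals without ligand and is the common driver mutation of myeloproliferative neoplasms. LSK cells hold the blood stem cells and the multipotent progenitors that have begun to favour a myeloid, megakaryocytic or lymphoid fate.

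The kept cells had 197836491 UMIs in the Ikk2CA library and 182778171 in the Jak2V617F library. The median cell held 17726 UMIs and 3895 genes in Ikk2CA and 11106.5 UMIs and 3272 genes in Jak2V617F, so shares of cells below were taken after thinning each cell to 5000 UMIs, unless stated. That step used 9460 Ikk2CA and 12795 Jak2V617F cells and left out 405 and 1361 shallower ones. The pair of libraries shared 60 kept barcodes. Xist, transcribed from the inactive X chromosome of females, was at 250.2 CPM in Ikk2CA and 0.257 in Jak2V617F. It was at 1176 CPM in the control and 319.8 in the double mutant. Of cells with 5000 UMIs or more, taken without thinning, 75.7% in Ikk2CA and 99.6% in Jak2V617F had no Xist UMI. The Y-linked gene Ddx3y was at 27.4, 49.3, 24.9 and 26.2 CPM. The pools therefore differ in their share of female cells. Among cells with no Xist UMI the counts of 2-fold genes given below were 174 and 227, in place of 178 and 231. A cell with no Xist UMI need not be from a male, so these counts do not remove the difference in sex.

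The sort markers Kit and Ly6a, which encodes Sca-1, were detected in both libraries. Kit was at 87.6 CPM in Ikk2CA and 175 in Jak2V617F, with a UMI in 35.7% and 57.4% of thinned cells. Ly6a was at 233 and 138 CPM, with a UMI in 54.6% and 45.9% of cells. Ikbkb itself was at 53.9 CPM in Ikk2CA and 67.3 in Jak2V617F, and Jak2 was at 15.6 and 18.03. These 3' counts do not tell mutant from normal transcripts, and whether the transgene's 3' end would be counted under Ikbkb is not given in the sources used here, so neither value checks a label. The transcript of the Rosa26 locus, Gt(ROSA)26Sor, where the R26 allele sits, was at 12.2 CPM in Ikk2CA and 14.2 in the double mutant, against 27.6 in Jak2V617F and 31.8 in the control. The 2 libraries labelled with the Ikk2-CA allele are thus the 2 low ones.

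Most genes differed little between the single mutants, and 6710 (80.3%) lay within 1.5-fold. A total of 178 genes (2.13% of those compared) were at least 2-fold higher in Ikk2CA, and 231 (2.76%) were at least 2-fold higher in Jak2V617F. Large differences lay mostly on one side, with 76 genes at least 4-fold higher in Ikk2CA and 10 in Jak2V617F. The 178 genes made up 3.64% of the UMIs of the Ikk2CA library and 0.646% of those of the Jak2V617F library. The median gene had a log2 ratio of Ikk2CA over Jak2V617F of -0.22, a ratio of 0.861. Relative to that median the counts were 239 higher in Ikk2CA and 113 higher in Jak2V617F, and with TMM scaling they were 236 and 115, so the share of 2-fold genes that were higher in Ikk2CA went from 43.5% to 67.9% and 67.2%. Of 105 named genes past 2-fold, 98 were still past it relative to the median gene, 92 without cells assigned a lineage type and 60 in the stem-marker cells described further on. Just inside the expression limit lay Dmac2l at 10.0012 CPM, and just outside it 9430015G10Rik at 9.99572 CPM.

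**Figure D1:**
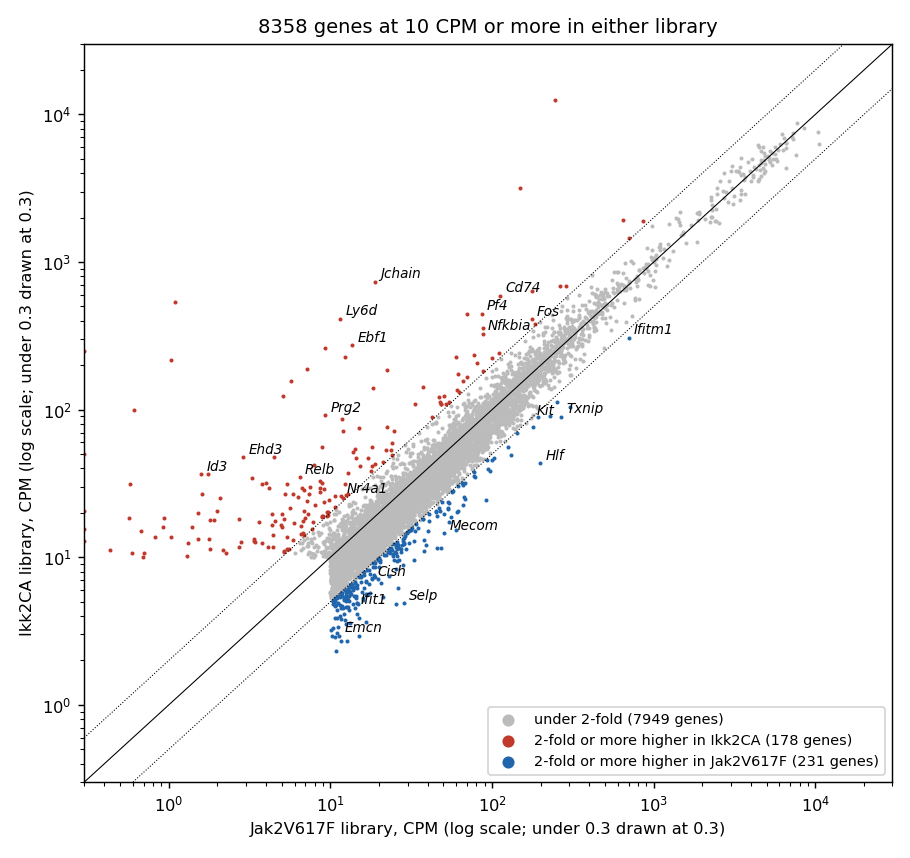
Each point is 1 of the 8358 genes, with its CPM in the Jak2V617F library (x, log scale) and in the Ikk2CA library (y, log scale), the solid line marks equal values and the dotted lines 2-fold. The 178 red genes reach much farther from the line than the 231 blue ones, and 76 against 10 of them are past 4-fold.

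Genes of the NF-κB pathway were split by role: both non-canonical subunits and 9 of 12 feedback inhibitors were higher in Ikk2CA, and the remaining subunits and kinases were under 2-fold. The sequences shown are the upstream bases of 4 such genes, because each holds letters that match the named κB consensus of 10 letters, the motif that NF-κB dimers bind. They are from RefSeq, build GRCm38.p6, read 5′ to 3′ along the gene's strand within the 250 bases before its start, with the matching letters in capitals. The Nfkbia stretch is chr12:55492648-55492706 on the minus strand, and its match begins 29 bases before the gene's start. The Nfkb2 stretch is chr19:46304668-46304736 on the plus strand, where matches begin 39, 38 and 11 bases before the start and the first pair overlap. The Tnfaip3 stretch is chr10:19015411-19015565 on the minus strand, with matches 125 and 12 bases before the start. The Ltb stretch is chr17:35194390-35194459 on the plus strand, with a match 87 bases before the start.
Nfkbia: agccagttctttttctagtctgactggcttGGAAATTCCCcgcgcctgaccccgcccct
Nfkb2: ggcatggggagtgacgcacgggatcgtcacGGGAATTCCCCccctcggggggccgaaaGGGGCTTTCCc
Tnfaip3: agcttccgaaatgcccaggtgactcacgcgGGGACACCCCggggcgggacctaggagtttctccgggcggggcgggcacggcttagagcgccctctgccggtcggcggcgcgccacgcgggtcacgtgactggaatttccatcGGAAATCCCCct
Ltb: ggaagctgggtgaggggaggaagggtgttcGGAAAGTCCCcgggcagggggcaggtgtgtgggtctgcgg

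On either strand, the κB consensus was found in 1281 of all 32851 promoter windows (3.90%) and in 354 of the 6721 compared genes that have a window (5.27%). It was found in 13 of 112 genes at least 2-fold higher in Ikk2CA (11.6%) and in 6 of 186 at least 2-fold higher in Jak2V617F (3.23%). Of the NF-κB list genes with a window, 21 of 41 held it. Those 21 had a median log2 ratio of 0.50, with 6 of them 2-fold higher in Ikk2CA, and the 20 without it had a median of -0.17, with 2 of them 2-fold higher. A match is a description of letters and not a measured site. The GAS letters TTCNNNGAA, the form that STAT dimers bind, were found in 7.02% of all windows and 6.87% of compared genes with a window. They were in 11.6% of the genes higher in Ikk2CA, 4.84% of those higher in Jak2V617F and 12 of the 41 NF-κB list genes. For the AP-1 letters TGANTCA the shares were 4.91% of compared genes, 8.04% of those higher in Ikk2CA and 9.14% of those higher in Jak2V617F. For the CRE letters TGACGTCA they were 3.14%, 1.79% and 2.69%.

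Relb (chr7:19606217-19629438, build mm10), the partner subunit of the non-canonical NF-κB dimer, was at 34.9 CPM in Ikk2CA and 6.46 in Jak2V617F, with 6.31 in the control and 28.9 in the double mutant. The 2 libraries with the Ikk2-CA allele were the high ones, and the ratio of the single mutants was 5.398 (interval 5.07 to 5.75). Nfkb2, which encodes the other subunit of that dimer, was at 27.5, 8.57, 7.64 and 19.998 CPM in the same order of libraries, a ratio of 3.21. The other 9 compared genes of the 11 subunits and upstream kinases were all under 2-fold. Nfkb1, for example, was at 86.5 and 101 CPM, and Rela, the main activating subunit, at 31.9 and 40.9. The median of the 11 was -0.22, the same as that of all genes to 2 decimals.

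Among 12 feedback inhibitors the median log2 ratio was 0.61, 9 were higher in Ikk2CA and 3 were at least 2-fold higher, beside 2.13% of all genes. Nfkbia, which encodes the inhibitor that holds NF-κB in the cytoplasm, was at 325 CPM in Ikk2CA, 87.4 in Jak2V617F, 69.9 in the control and 252 in the double mutant. Its UMIs were found in 75.8% of thinned Ikk2CA cells (interval 74.96 to 76.7) and 33.02% of Jak2V617F cells (32.2 to 33.8). Without thinning the shares were 94.6% and 57.3%. This was 1 of the 5 largest gains in detection among the genes eligible to be named. Tnfaip3, a ubiquitin-editing brake on the pathway, was at 19.5 CPM against 4.99, with 4.16 in the control and 7.07 in the double mutant. Nfkbie, another inhibitor of the same family, was at 25.9 and 10.6 CPM. The deubiquitinase gene Cyld was at 35.9 and 40.3 CPM, and Otulin at 43.3 and 51.5.

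Of 32 NF-κB target ligands, chemokines and receptors, 14 reached 10 CPM. Of these, 6 were at least 2-fold higher in Ikk2CA and 1 in Jak2V617F, beside 2.13% and 2.76% of all genes. Ltb, a membrane-bound ligand of the tumour necrosis factor family, was at 355 CPM in Ikk2CA, 88.04 in Jak2V617F, 104 in the control and 304 in the double mutant. It had a UMI in 68.2% and 30.8% of thinned cells of the single mutants. The chemokine gene Ccl5 was at 75.5 and 15.1 CPM, and 48.8% of its Ikk2CA UMIs lay in the 1% of cells with most of them. Ccl4, another chemokine gene, was at 109 and 48.03 CPM. The activation marker Cd69 was at 155 and 65.7 CPM, the receptor gene Il18r1 at 17.5 and 6.78, and Pdcd1lg2, a ligand of the checkpoint receptor PD-1, at 16.97 and 5.94. The exception was Il15, a cytokine gene, at 10.4 CPM in Ikk2CA and 22.04 in Jak2V617F, which was under 2-fold relative to the median gene at a log2 ratio of -0.87.

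The NF-κB targets grouped as survival and other genes did not follow the inhibitors. Of 14, 1 was at least 2-fold higher in Ikk2CA, beside 2.13% of all genes. The median was -0.10, or 0.12 relative to the median gene. Birc3, an inhibitor of apoptosis, was at 20.4 and 13.5 CPM. Sod2, the mitochondrial superoxide dismutase, was at 106 and 122. Serpina3f was the 2-fold member, at 18.6 CPM in Ikk2CA, 8.91 in Jak2V617F and 2.86 in the control, whereas Serpina3g was at 141, 226 and 96.2. These are near-identical gene copies whose reads the counting may split, so both values are uncertain.

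Immediate early genes, the fast-response transcription factors that many stimuli and cell handling switch on, were higher in Ikk2CA for 17 of 19 members. The median was 0.82, and 6 were at least 2-fold higher, beside 2.13% of all genes. Fos was at 411 CPM in Ikk2CA, 176 in Jak2V617F, 55.7 in the control and 56.4 in the double mutant. Nr4a1, a nuclear receptor gene, was at 25.9, 11.6, 2.28 and 1.58 CPM, and Klf4 at 16.7, 4.34, 2.73 and 1.899. For these 3 genes the single mutants were the 2 high libraries, and the control and double mutant were both low. That order differs from that of Relb and Nfkbia, which were high in both libraries with the Ikk2-CA allele. The clock gene Per1 was the member farthest the other way, at 10.9 CPM in Ikk2CA and 20.98 in Jak2V617F. The part of tissue handling in these values was not tested.

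The JAK and STAT genes themselves differed little, with 0 of 11 past 2-fold and a median of -0.41; relative to the median gene, 4 of the 11 were higher in Ikk2CA. Stat3 was farthest from 0, at 45.8 CPM in Ikk2CA and 83.3 in Jak2V617F. Among 19 compared STAT5 targets and feedback genes, 3 were at least 2-fold higher in Jak2V617F, beside 2.76% of all genes, and 1 in Ikk2CA. Of the 19, 14 were lower in Ikk2CA, with a median of -0.44, and relative to the median gene 6 were higher in Ikk2CA. Pim2, a survival kinase gene, was at 4.88 CPM in Ikk2CA, 14.7 in Jak2V617F, 8.74 in the control and 6.61 in the double mutant, a ratio of 3.004 for Jak2V617F over Ikk2CA (interval 2.79 to 3.24). Cish, a feedback inhibitor of cytokine receptors, was at 7.08, 17.99, 11.1 and 8.98 CPM. Jak2V617F was the highest of the 4 libraries for both genes. Socs5, another gene of the feedback family, was at 6.399 and 13.2 CPM, with 11.97 in the control, and relative to the median gene its log2 ratio of -0.83 was under 2-fold.

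Among the other STAT5 targets, Pim1 was at 231 CPM in Ikk2CA and 310.1 in Jak2V617F, and its control value was higher than both at 351. Socs2 was at 11.4 and 17.5 CPM, with the double mutant highest at 24.6. Cdkn1a, which encodes a cell cycle inhibitor and is also a target of p53, was the only one of the 5 members higher in Ikk2CA to pass 2-fold, at 42.6 CPM against 18.8 in Jak2V617F, 12.5 in the control and 13.99 in the double mutant. Of 15 cytokine receptor genes, 2 were at least 2-fold higher in Ikk2CA and 1 in Jak2V617F, beside 2.13% and 2.76% of all genes. The list had 9 of 15 members lower in Ikk2CA and a median of -0.18, which was 0.033 relative to the median gene. Il7r, a receptor chain of early lymphoid cells, was at 42.4 and 7.91, and Csf1r, the macrophage growth factor receptor, at 17.7 and 4.56.

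**Figure D2:**
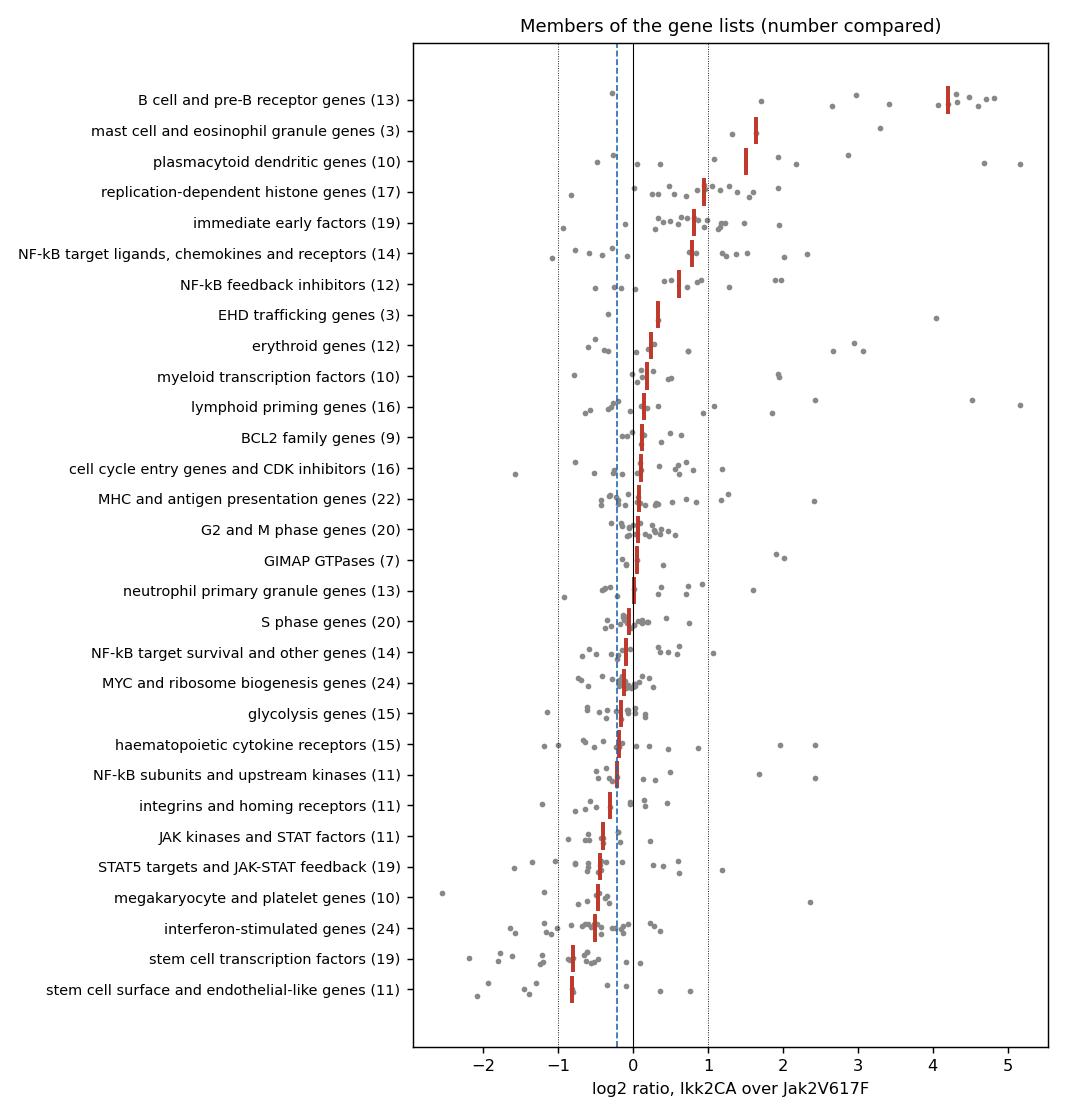
Each grey point is the log2 ratio of Ikk2CA over Jak2V617F of 1 list member at 10 CPM or more (x), lists are on the y axis with their number of compared members, and red bars are list medians. The dashed line is the median gene at -0.22 and the dotted lines mark 2-fold; the B cell list lies farthest to the right with a median of 4.20, and both stem cell lists lie farthest to the left.

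B cell genes stood among the highest ratios, with 6 genes of the B cell list in the 15 highest of the genes eligible to be named, which leave out sex-linked genes such as Xist. Of 13 compared B cell and pre-B receptor genes, 12 were at least 2-fold higher in Ikk2CA, beside 2.13% of all genes. The median log2 ratio was 4.20. Cd72 was the other member, at 30.6 and 37.04 CPM. Cd79a, which encodes the signalling chain of the B cell receptor, was at 187 CPM in Ikk2CA, 7.13 in Jak2V617F, 32.9 in the control and 11.6 in the double mutant. Ebf1, the transcription factor that sets B cell fate, was at 273, 13.6, 52.2 and 18.2 CPM. For both genes the control lay between the single mutants and the double mutant lay near Jak2V617F. Ly6d, a surface marker of B-primed lymphoid progenitors, was at 411 and 11.5 CPM, a ratio of 35.7 (interval 34.2 to 37.3). Vpreb3, Vpreb1, Vpreb2 and Igll1, whose proteins take part in making the pre-B receptor, were at 263, 227, 36.7 and 124 CPM in Ikk2CA and 9.32, 12.3, 1.74 and 5.07 in Jak2V617F. Vpreb1 and Vpreb2 are near-identical copies, so the split between them is uncertain. Id3 and Lef1, transcription factor genes used in early lymphocytes, were at 36.4 and 26.7 CPM in Ikk2CA and 1.58 and 1.61 in Jak2V617F.

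Plasma cell and plasmacytoid dendritic cell genes were high in Ikk2CA as well, though most UMIs of Jchain lay in few cells. Jchain, which joins secreted antibody units, was at 737 CPM in Ikk2CA, 18.8 in Jak2V617F, 167 in the control and 19.5 in the double mutant, and 69.8% of its Ikk2CA UMIs lay in the 1% of cells with most of them. Its ratio of 39.2 was the highest among the genes eligible to be named, which leave out Xist. Its UMIs were in 8.38% of thinned Ikk2CA cells, and in 6.05% of Ikk2CA cells with stem cell markers, which should lack it. The corresponding shares in Jak2V617F were 0.328% and 0.287%. The part of free RNA in these shares was not tested, so they are not read as shares of plasma cells. Immunoglobulin genes and Jchain together held 1.73% of the UMIs in Ikk2CA and 0.0424% in Jak2V617F. Of 10 plasmacytoid dendritic genes 6 were at least 2-fold higher in Ikk2CA, beside 2.13% of all genes. Siglech was at 11.1 and 0.432 CPM and Irf8, also a factor of monocyte progenitors, at 229 and 59.8.

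**Figure D3:**
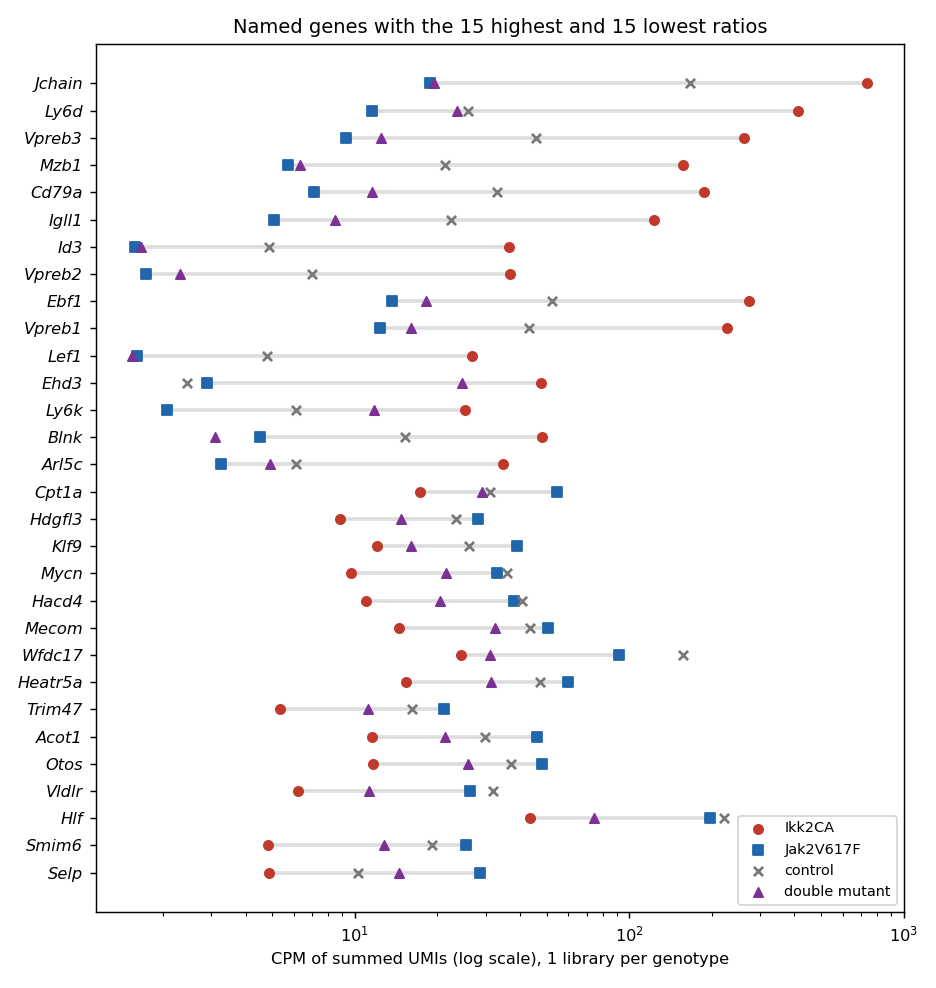
The 15 highest and 15 lowest ratios among genes eligible to be named are shown by their CPM in each of the 4 libraries (x, log scale), 1 gene a row, and a grey bar joins the single mutants. In the upper rows Ikk2CA is highest throughout, Ehd3 is also high in the double mutant, and in the lower rows the double mutant falls between the single mutants.

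Cells were then counted by their own markers: a cell counts toward a type when it has UMIs of most of that type's measured markers after thinning to 5000 UMIs, a cut set after the data were seen. The stem cell type had a lower cut, at 4 of 10 markers. B cell markers were present in this way in 1276 Ikk2CA cells, 13.5% (interval 12.8 to 14.2), and in 61 Jak2V617F cells, 0.477% (0.365 to 0.612). Plasma cell markers were present in 6.78% and 0.0703%, and plasmacytoid dendritic markers in 7.07% and 0.563%. Granulocyte-monocyte markers were present in 10.8% and 5.05%. The control lay at 1.76% for B cells, 1.43% for plasmacytoid dendritic cells and 5.82% for granulocyte-monocyte markers. At least 4 of 10 stem cell markers were present in 9.24% of Ikk2CA cells (interval 8.66 to 9.84), 24.7% of Jak2V617F cells (23.9 to 25.4), 27.1% of control cells and 14.4% of double-mutant cells. Few cells stood near the B cell cut in Ikk2CA, with 85 at it and 38 just below it, whereas 537 stood at the stem cell cut and 1015 just below. Of the 641 Ikk2CA cells with plasma cell markers, 413 stood at the cut and 1839 more just below it. For plasmacytoid dendritic markers 302 of 669 stood at the cut and 632 just below, and for granulocyte-monocyte markers 577 of 1022 and 1359. These shares therefore depend on the cut more than the B cell share does, and the part of free RNA in them was not tested. Any lineage type was assigned to 35.4% of Ikk2CA cells and 6.92% of Jak2V617F cells. Without thinning, shares of all kept cells with a UMI were 67.6% in Ikk2CA and 81.1% in Jak2V617F for Kit, 79.5% and 66.1% for Ly6a, 87.1% and 47.8% for Ltb, and 22.2% and 0.904% for Jchain. The plasma class rests on few markers, and 397 Ikk2CA cells met more than 1 type.

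**Figure D4:**
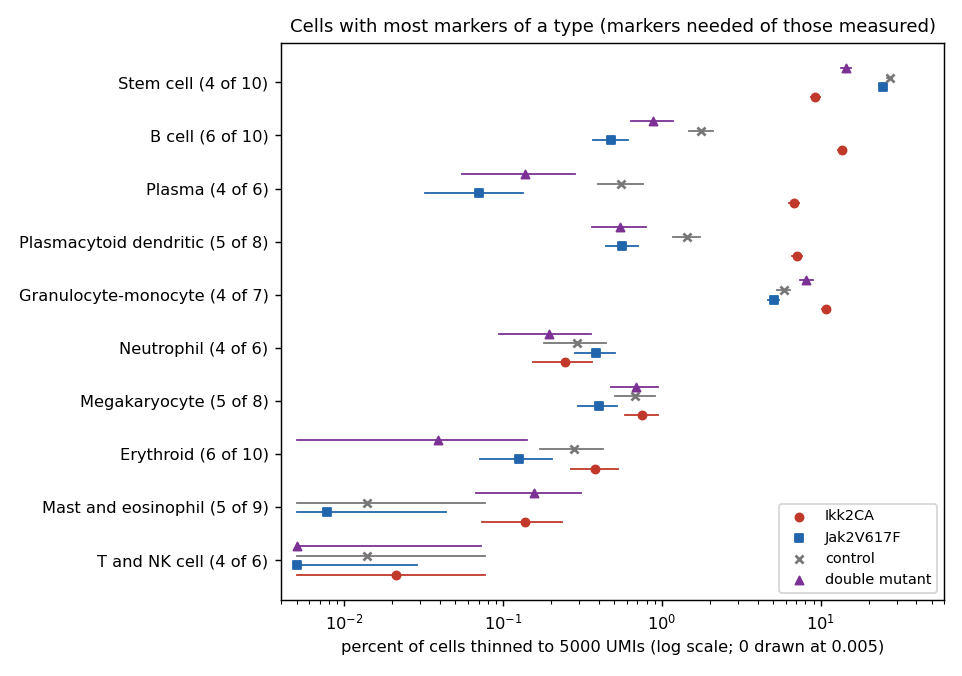
Percent of cells with most of a type's markers (x, log scale) for 10 types, by library, with 95% Clopper-Pearson intervals for counting error, and a share of 0 drawn at 0.005. The stem cell type is the exception and needed at least 4 of 10 markers. Ikk2CA stands at 13.5% for B cell markers against 0.477% in Jak2V617F, and at 9.24% against 24.7% for stem cell markers.

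In summed counts, more cells of a type and more RNA of a gene per cell cannot be told apart. Within B-marker cells the B cell genes were close between libraries, with Cd79a at 1327 CPM in Ikk2CA and 895 in Jak2V617F and Ebf1 at 1978 and 1534, and with 0 of 13 B cell genes past 2-fold, beside 2.62% of all genes higher in Ikk2CA and 3.73% in Jak2V617F. These genes helped to define the cells. B-marker cells numbered 1276 in Ikk2CA and 61 in Jak2V617F, and 12.7% and 32.8% of them were among the cells of highest doublet score. The same cells give the shares in B-marker cells below, and the part of doublets in those shares was not tested. Leaving out only the B-marker cells lowered the count of genes 2-fold higher in Ikk2CA from 178 to 146, and leaving out every cell assigned a lineage type lowered it to 125. On the Jak2V617F side the counts went from 231 to 169 and to 103.

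Stem cell genes were mostly lower in Ikk2CA. Of 19 stem cell transcription factors, 18 were lower in Ikk2CA and 7 at least 2-fold lower, beside 2.76% of all genes, with a median of -0.80. Hlf, a factor that marks blood stem cells, was at 43.4 CPM in Ikk2CA, 198 in Jak2V617F, 221 in the control and 74.5 in the double mutant. Its UMIs were in 18.5% and 52.2% of thinned cells of the single mutants. In B-marker cells, which should lack Hlf, the shares were 2.51% and 14.8%, with median depths of 15908 and 16649 UMIs before thinning. Mecom, needed for stem cell upkeep, was at 14.5, 50.8, 43.4 and 32.5 CPM in the same order of libraries. For Hlf and Mecom the Ikk2CA library was the lowest of the 4, and Jak2V617F was within 1.5-fold of the control. Meis1, Mycn and Nfia were at 76.8, 9.65 and 7.48 CPM in Ikk2CA and 179, 33.05 and 22.97 in Jak2V617F, and Runx1, broadly used in blood progenitors, was at 98.3 and 105.

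Surface and endothelial-like genes of stem cells gave 5 of 11 members at least 2-fold lower in Ikk2CA, beside 2.76% of all genes. Their median was -0.82. Procr, whose protein marks the purest stem cell fractions, was at 9.397 CPM in Ikk2CA, 25.7 in Jak2V617F, 26.1 in the control and 11.7 in the double mutant. Emcn was at 2.94, 11.3, 20.8 and 6.94, and Vldlr, a lipoprotein receptor gene, at 6.21, 26.3, 31.98 and 11.3. Ly6a was an exception in this list, as was Cd48, which multipotent progenitors gain, at 184 CPM in Ikk2CA and 144 in Jak2V617F. Adgrl4, an adhesion receptor gene, had a UMI in 37.3% of thinned Ikk2CA cells and 73.2% of Jak2V617F cells. Without thinning the shares were 62.4% and 88.03% for Adgrl4 and 34.6% and 71.8% for Hlf.

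Selp had the lowest ratio of all genes eligible to be named. It encodes P-selectin, the adhesion molecule of platelets and endothelium, and was at 4.87 CPM in Ikk2CA, 28.5 in Jak2V617F, 10.3 in the control and 14.5 in the double mutant. The ratio of Jak2V617F over Ikk2CA was 5.85 (interval 5.46 to 6.28), and Jak2V617F was the highest of the 4 libraries. Of the 15 lowest ratios, 4 were of genes in the stem cell lists and 10 of genes in no list, such as Smim6, Otos, Acot1 and Heatr5a with log2 ratios of -2.40, -2.05, -1.99 and -1.97. Of all 231 genes higher in Jak2V617F, 12 were in the stem cell lists. Pf4, the platelet chemokine gene, had the opposite direction, at 444, 86.1, 99.3 and 509 CPM, high in both libraries with the Ikk2-CA allele. The other 8 of 10 megakaryocyte and platelet genes included no member higher in Ikk2CA, with Itga2b, the platelet integrin, at 23.6 and 29.7 CPM. Megakaryocyte markers were present in 0.751% of Ikk2CA and 0.399% of Jak2V617F cells.

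Interferon-stimulated genes were lower in Ikk2CA for 21 of 24 members, 6 of them at least 2-fold, beside 2.76% of all genes, with a median of -0.50. Relative to the median gene 7 of the 24 were higher in Ikk2CA and the median was -0.29. On that scale Ifit1 and Rsad2 stayed past 2-fold, at log2 ratios of -1.43 and -1.36. Ifi44, Ifitm1, Irgm2 and Oasl2 were then under 2-fold, at -0.87, -0.97, -0.94 and -0.79. Ifit1 was at 4.54 CPM in Ikk2CA, 14.2 in Jak2V617F, 15.6 in the control and 7.095 in the double mutant. Rsad2, an antiviral enzyme gene, was at 4.92, 14.7, 15.7 and 5.35. Ifitm1 had a UMI in 53.1% of thinned Ikk2CA cells and 85.6% of Jak2V617F cells, and in 13.4% and 34.4% of B-marker cells, and without thinning in 69.1% and 93.4% of all cells. Jak2V617F lay near the control for this list, with a median log2 ratio to it of -0.02, and Ikk2CA lay at -0.58. Isg15 was not lower, at 33.9 and 27.9 CPM.

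Of 22 antigen presentation genes, 3 were at least 2-fold higher in Ikk2CA, all of the class II pathway, beside 2.13% of all genes. Cd74, the chaperone of class II molecules, was at 593 CPM in Ikk2CA, 112 in Jak2V617F, 133 in the control and 225 in the double mutant. The class II genes H2-Eb1 and H2-Aa were at 167 and 225 CPM in Ikk2CA and 69.6 and 99.7 in Jak2V617F. The class I gene H2-K1 was at 1523 and 1468 CPM. H2-DMa, also of the class II pathway, was at 175 and 183, and the list median was 0.08. H2 genes are similar in sequence, and reads may be shared among them.

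Granule genes of neutrophil precursors, a granulocyte-monocyte programme, had a median of 0.01. Of 13, 1 was at least 2-fold higher in Ikk2CA, beside 2.13% of all genes. Mpo was at 682 CPM in Ikk2CA and 412 in Jak2V617F, Elane at 189 and 245. Prtn3 had a UMI in 53.1% and 84.6% of thinned cells, and in 10.9% and 22.95% of B-marker cells, which should lack it, and without thinning in 69.2% and 93.1% of all cells. Globin genes and granule genes of eosinophils rested on few cells. Hbb-bs, an adult globin gene, was at 444 and 69.9 CPM, and Prg2, an eosinophil granule gene, at 91.5 and 9.28, with 96.2% and 86.5% of their Ikk2CA UMIs in the 1% of cells with most of them. Without the cells of highest doublet score the log2 ratio of Hbb-bs was -1.60 in place of 2.67. The median of the 12 erythroid genes was 0.24, and -0.47 without those cells. Globin copies share sequence, so their split is uncertain.

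Cell cycle genes gave no difference of 2-fold, with 0 of 20 S phase genes and 0 of 20 G2 and M phase genes past it and medians of -0.05 and 0.07, or 0.16 and 0.29 relative to the median gene. Mki67, the standard proliferation marker, was at 217 CPM in Ikk2CA and 211 in Jak2V617F. Among cell cycle entry genes, Txnip, a brake on glucose uptake and growth, was at 89.5 CPM in Ikk2CA, 267 in Jak2V617F, 244 in the control and 133 in the double mutant. Ccnd2, the D-type cyclin, was at 142 and 243 CPM, and Ccnd1 at 70.6 and 46.4. Replication-dependent histone genes, whose transcripts normally lack poly(A) tails, were higher in Ikk2CA for 16 of 17 members. At least 2-fold higher were 7, beside 2.13% of all genes, with Hist1h4d at 236 and 77.8 CPM and 37.97 in the control. Histone copies are near-identical and uncertain one by one. The 24 genes of MYC and ribosome biogenesis had 0 members past 2-fold and a median of -0.12, or 0.10 relative to the median gene.

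The comparison was repeated in cells with at least 4 of 10 stem cell markers and no lineage type, 843 Ikk2CA and 3131 Jak2V617F cells with median depths of 11525 and 8592 UMIs. The differences in Relb, Nfkbia and Ltb were larger there than in all cells. Relb was at 54.3 CPM in Ikk2CA and 9.15 in Jak2V617F, Nfkbia at 439.98 and 105, and Ltb at 955 and 169.5, with Ltb UMIs in 95.5% and 50.2% of thinned cells. Ltb had a ratio of 5.63 (interval 5.45 to 5.82) in these cells and 4.03 in all. Feedback inhibitors at least 2-fold higher numbered 5 of 12, ligands and receptors 8 of 14 and immediate early genes 13 of 19, beside 140 of the 8358 genes (1.68%) in these cells. With genes chosen by their CPM in these cells, 123 of 8604 were at least 2-fold higher in Ikk2CA and 67 in Jak2V617F. Pf4 was at 530.3 CPM against 49.4, with a UMI in 66.5% and 13.7% of thinned cells, beside 6.82% and 8.197% in B-marker cells. Cdkn1a was at 45.6 and 9.42 CPM, a log2 ratio of 2.28 against 1.18 in all cells.

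Some other differences were smaller in the stem-marker cells, and some were larger. No stem cell transcription factor was past 2-fold, beside 0.766% of all genes higher in Jak2V617F in these cells, and the list's median was -0.20, but Hlf, Mecom, Meis1, Hoxa9 and Mllt3 are among the markers that chose the cells. Mycn and Nfia, which did not choose them, had log2 ratios of -0.76 and -0.77, against -1.78 and -1.62 in all cells. The interferon-stimulated list had a median of 0.08 there, on the other side of 0, with 0 of 24 past 2-fold. Pim2 and Selp kept a direction toward Jak2V617F, with log2 ratios of -1.76 and -1.63, against -1.59 and -2.55 in all cells. S phase genes were lower in Ikk2CA in all 20 members within these cells, with a median of -0.51, and G2 and M phase genes in all 20, with a median of -0.64. In all cells these list medians were -0.05 and 0.07. Cd79a and Ebf1, at 4.06 and 5.25 CPM in Ikk2CA stem-marker cells, had UMIs in 1.42% and 2.02% of them. Their log2 ratios were 3.61 and 2.86 in stem-marker cells, against 4.72 and 4.32 in all cells. Still, 8 of 13 B cell genes stayed past 2-fold toward Ikk2CA there, beside 1.68% of all genes. Over those 13 the median log2 ratio was 2.84, against 4.20 in all cells. Ly6d was not smaller, at 5.23 against 5.16. The part of free RNA in all these B cell gene values was not tested.

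**Figure D5:**
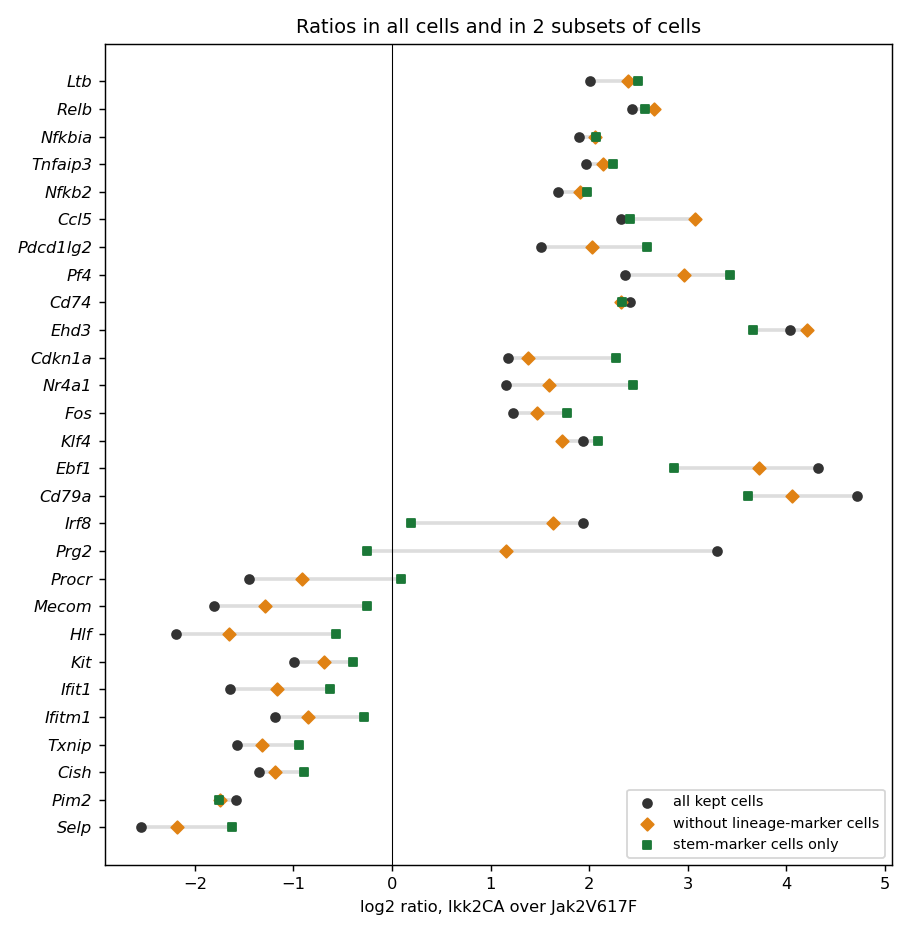
Log2 ratio of Ikk2CA over Jak2V617F (x) for 28 genes in all kept cells, without cells assigned a lineage type, and in stem-marker cells only. The NF-κB genes Ltb and Relb stay above 2 in all 3 sets and Nfkb2 stays under 2, while Irf8, Procr and Mecom lie near 0 in stem-marker cells. Procr and Mecom are among the markers that chose these cells. Irf8 is a plasmacytoid dendritic marker, and cells of that type were left out of them.

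The control and double-mutant libraries place these differences. Of the 178 genes higher in Ikk2CA, the control lay nearer Jak2V617F on the log scale for 156 (87.6%) and the double mutant nearer Jak2V617F for 126 (70.8%). Ikk2CA was past 2-fold from the control for 140 of them and Jak2V617F for 57. Of the 231 genes higher in Jak2V617F, the control lay nearer Jak2V617F for 218 (94.4%), and above both single mutants for 88. Ikk2CA was past 2-fold from the control for 154 of the 231, and Jak2V617F for 4. The double mutant lay between the single mutants for 216 of the 231 (93.5%) and nearer Ikk2CA for 160. These positions are on the CPM scale, and relative to the median gene 113 of the 231 stay past 2-fold. The positions were not counted over all genes compared. A gap of 2-fold or more between the single mutants itself makes a place between them more likely. Among named genes, Relb, Nfkbia, Ltb, Pf4 and Ehd3 had double-mutant values nearer Ikk2CA, and Cd79a, Ebf1, Jchain, Fos, Nr4a1 and Klf4 nearer Jak2V617F. Ehd3, which encodes a membrane-trafficking protein, was at 47.6 CPM in Ikk2CA, 2.89 in Jak2V617F, 2.44 in the control and 24.5 in the double mutant.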

How the data were processed

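Droplet 3' libraries were aligned and counted with Cell Ranger by the authors, version 3.0.1 per the series' design text and 4.0.0 per the file headers, on mm10 per the submitters' processing notes. The deposited values are raw UMI counts per gene and barcode. The authors' filter on genes (500 to 7500) and mitochondrial counts (under 10%) was applied again here. Counts were summed per library and scaled to CPM, with Python 3.11.15, numpy 2.4.6, scipy 1.17.1 and pandas 2.3.3. Ratios have exact conditional binomial intervals, and shares have Clopper-Pearson intervals. No test was run, since each genotype has 1 library. Scrublet (scanpy 1.11.5) called 235 Ikk2CA cells and 0 Jak2V617F cells as doublets, so it did not work for the latter. Doublets were therefore kept, and as an alternative the top-scoring 844 and 1895 cells were left out, at 0.8% per 1000 cells. Scaling alternatives used edgeR 4.0.16 and DESeq2 1.42.0. Named genes were the 15 highest and 15 lowest ratios at 20 CPM or more, the 5 largest detection differences each way, up to 6 members a list (all of lists of up to 14), and the genes of the sort, of the sex chromosomes and of the engineered alleles; mitochondrial, ribosomal, antigen receptor, sex-linked and unnamed genes were not eligible for the first 2 kinds. Some genes that the rule would name are not reported here. Genes outside this rule were named after their values were seen. The comparison and the 33 gene lists were chosen with earlier results of these data known. Median mitochondrial shares were 3.45% and 4.73%.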

Additional observations from a re-analysis of the deposited data

How the results depend on the processing

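The main counts were 178 genes higher in Ikk2CA and 231 in Jak2V617F. The Ikk2CA count was 1517 with no CPM filter and 63 at 50 CPM or more. The Jak2V617F count was 115 with TMM factors, 111 with median-of-ratios factors, 2332 with no CPM filter, 40 at 50 CPM or more, 103 without lineage-marker cells, 67 in stem-marker cells and 113 relative to the median gene; this last setting, and leaving out B-marker cells, were added after seeing the data. The other settings left both counts within 1.5 times. In stem-marker cells 6 results changed sign among those with a list median past 0.5 or a log2 ratio past 1 in all cells, with medians of -0.25 for the mast cell list and 0.082 for the interferon list, and log2 ratios of -0.25 for Prg2, 0.094 for Procr, -0.042 for Ets1 and -0.93 for Mcpt8. Below those limits 7 of 22 list medians and 31 of 125 named genes changed sign there, and with TMM factors 6 and 9 did. Without the highest doublet scores Hbb-bs was at -1.60, Hba-a1 at -1.45, Hba-a2 at -1.47 and Mcpt8 at -0.21. Below those limits, Hbb-bt was then at -1.64 against 0.74 and the erythroid list median at -0.47 against 0.24. Without B-marker cells Ets1 was at -0.036, and in cells with no Xist UMI Tsix was at -1.50. The cause was not tested. No paired analysis was possible because each genotype has 1 library. In all kept cells the intervals of the ratios named as highest and lowest span at most a factor of 1.27. That span does not cover the subsets of cells, where fewer cells were summed. The part of counting error in these shifts was not tested.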

Other observations

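Gimap7, a GTPase gene of lymphocytes and progenitors, was at 51.8 CPM in Ikk2CA, 13.8 in Jak2V617F, 13.8 in the control and 38.8 in the double mutant, and in stem-marker cells at 73.5 and 18.2 CPM in the single mutants. Of 7 GIMAP genes it and Gimap4 were at least 2-fold higher in Ikk2CA, beside 2.13% of all genes, and Gimap1 was at 141 and 150.1 CPM. The copies are similar, so their split is uncertain. Il2rg, the shared chain of several lymphoid cytokine receptors, was at 81.6, 44.7, 31.6 and 73.6 CPM in the same order of libraries. Tnip3, an NF-κB inhibitor gene, was at 46.4, 25.7, 29.7 and 55.8 CPM.

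Among 11 integrins and homing receptors, 1 was at least 2-fold higher in Jak2V617F, beside 2.76% of all genes. It was Itga6, a laminin receptor chain, at 23.2 CPM in Ikk2CA and 53.9 in Jak2V617F. Cxcr4, which holds stem cells in the marrow, was at 29.5 and 46.1 CPM, and in stem-marker cells at 16.04 and 42.3. Of 15 glycolysis genes 1 was at least 2-fold higher in Jak2V617F, beside 2.76% of all genes. It was the glucose transporter gene Slc2a3, at 15.1 CPM in Ikk2CA and 33.4 in Jak2V617F. Relative to the median gene its log2 ratio of -0.93 was under 2-fold, and in stem-marker cells the log2 ratio was -0.31. Cpt1a, which admits fatty acids to mitochondria, was at 17.3 CPM in Ikk2CA, 54.4 in Jak2V617F, 31.1 in the control and 29.1 in the double mutant.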
